A study of Homo sapiens with 18 samples.

Results

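The genes described here are 7 ligands of the epidermal growth factor family (EGF, TGFA, HBEGF, AREG, EREG, BTC and NRG1) and 3 of their receptors (EGFR, ERBB2 and ERBB3). They were chosen by name from the table of gene counts, which holds 20705 genes, and all 10 have an entry there. The ERBB proteins are receptor tyrosine kinases of the cell surface. A bound ligand lets receptors pair, and the kinases then switch on the RAS, RAF and ERK cascade and the PI3 kinase pathway. EGF, TGFA and AREG bind EGFR, while HBEGF, EREG and BTC bind EGFR and ERBB4. NRG1 binds ERBB3 and ERBB4. ERBB2 has no known ligand and acts as a partner of the others, and ERBB3 has little kinase activity of its own. Most of the ligands are made as membrane proteins and are released by ADAM proteases. In melanoma these receptors are known for a part in how cells keep ERK and PI3 kinase signalling when BRAF or MEK is blocked.

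The study asked how human melanoma cells change their transcripts when CDK4 and CDK6 or the arginine methyltransferase PRMT5 is inhibited. CHL1 is a line with wild-type BRAF and NRAS and mutant p53, grown in DMEM, and A375 is a line with mutant BRAF and wild-type p53, grown in RPMI-1640. CHL1 cells were given DMSO for 72 hours (control), 1 μM palbociclib for 72 hours or for 6 days (CDK4/6i), or 500 nM GSK3326595 for 72 hours (PRMT5i), and A375 cells were given the same plus DMSO for 6 days. Each of the 9 groups had 2 replicates, which gave 18 libraries of poly-A RNA. The methods say that 2 replicates of each condition were grown, without saying whether on separate days, so the p-values measure only the spread between these samples. The medium, the BRAF and p53 genotypes and, at 72 hours, the library set all differed between the lines, and each genotype is held by a single line, so their parts in a difference between lines cannot be told apart. CHL1 had no DMSO control of 6 days, and its 72-hour control served for both times, so days in culture and drug cannot be told apart there. The A375 controls of 72 hours and 6 days carried names of different library sets, so time and library set cannot be told apart between them.

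The stretches before the gene starts are shown for EGFR, the member whose level differed most between the lines, and for 3 ligands that rose under a drug (EGF, HBEGF and EREG), so that the start regions can be set beside the counts. EGF and EREG were also called down-regulated in another comparison, and BTC and NRG1, which rose too, are not shown. They are the 250 bases upstream of a start site in RefSeq on GRCh38.p14, written 5′ to 3′ on the strand of the gene, with the motifs searched in capitals. RefSeq windows were found for 8 of the 10 genes (not for ERBB3 or NRG1), and EGFR and TGFA had 2 windows each. HBEGF lies on the minus strand and the others shown lie on the plus strand.
EGFR, chr7:55018767-55019016: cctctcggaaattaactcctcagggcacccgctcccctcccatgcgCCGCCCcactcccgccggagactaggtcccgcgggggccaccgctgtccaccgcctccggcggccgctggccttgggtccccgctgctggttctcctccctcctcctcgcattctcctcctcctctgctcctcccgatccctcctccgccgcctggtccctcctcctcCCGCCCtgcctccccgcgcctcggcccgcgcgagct
EGFR, second start, chr7:55109589-55109838: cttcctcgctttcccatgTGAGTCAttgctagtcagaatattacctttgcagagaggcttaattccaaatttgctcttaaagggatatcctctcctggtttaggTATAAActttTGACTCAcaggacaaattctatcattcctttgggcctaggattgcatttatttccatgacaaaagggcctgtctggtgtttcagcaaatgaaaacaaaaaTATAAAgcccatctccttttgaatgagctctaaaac
EGF, chr4:109912633-109912882: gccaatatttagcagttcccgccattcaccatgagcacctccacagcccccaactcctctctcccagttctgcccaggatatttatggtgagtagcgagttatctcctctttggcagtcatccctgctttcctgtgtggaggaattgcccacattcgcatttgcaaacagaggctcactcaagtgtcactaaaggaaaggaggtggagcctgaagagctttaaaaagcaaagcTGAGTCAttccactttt
HBEGF, chr5:140346604-140346853: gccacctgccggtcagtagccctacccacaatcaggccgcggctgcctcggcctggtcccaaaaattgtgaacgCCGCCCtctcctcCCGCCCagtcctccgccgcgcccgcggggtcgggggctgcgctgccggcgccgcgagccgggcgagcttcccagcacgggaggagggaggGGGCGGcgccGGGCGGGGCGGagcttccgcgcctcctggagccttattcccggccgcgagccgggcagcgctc
EREG, chr4:74364895-74365144: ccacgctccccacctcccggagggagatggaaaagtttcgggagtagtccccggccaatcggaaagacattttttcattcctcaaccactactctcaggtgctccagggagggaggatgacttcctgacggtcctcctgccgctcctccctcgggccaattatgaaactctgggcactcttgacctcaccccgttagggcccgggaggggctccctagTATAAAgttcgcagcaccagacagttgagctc

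Each motif was searched on both strands without a mismatch. The GC box (GGGCGG) was found in 42.6% of all 35116 RefSeq windows of this length, the TATA box (TATAAA) in 10.7%, the ETS site (CCGGAAG) in 8.52%, the AP-1 site (TGANTCA) in 6.57%, the E-box (CACGTG) in 6.34% and the CRE (TGACGTCA) in 1.65%. The HBEGF window held 5 GC boxes and was 76.4% G and C. The start of EGFR that lies farther upstream held 2 GC boxes and was 73.6% G and C. The other EGFR window held 2 AP-1 sites and 2 TATA boxes and was 38.8% G and C. EGF had an AP-1 site, and EREG had a TATA box. Of the windows not shown, AREG had a CRE, a TATA box and a GC box, ERBB2 had an AP-1 site and 2 ETS sites, 1 of the TGFA windows had 3 GC boxes, and BTC and the other TGFA window had no match. A match describes these letters and is no measure of binding.

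The total counts lay between 20509245 and 37424081 in the 8 CHL1 libraries and between 16213475 and 36036772 in the 10 A375 libraries. Levels are given as CPM, the counts scaled to a common TMM library size, in the order of replicates 1 and 2. A member was called up-regulated or down-regulated, a DEG, when edgeR's quasi-likelihood test gave a Benjamini-Hochberg adjusted p below 0.05 over all 20705 genes. In 4 libraries the counts followed the GC content of the transcripts. The 10% of genes richest in GC stood below the 10% poorest by 2.74 and 2.12 on the log2 scale in the CHL1 PRMT5i libraries and by 2.43 and 1.20 in the A375 6-day controls, while this difference lay between -0.38 and 0.63 in the other 14. Fold changes of treatment against control that rest on those libraries are given with and without a correction for GC. Of 7 melanocyte lineage markers, MITF stood at 69.0 CPM in the CHL1 control and 111 CPM in the 72-hour A375 control, and PAX3 at 143 and 44.6 CPM. DCT, a pigment gene, was at 83.3 CPM in CHL1 and 0 in A375, and S100B at 31.3 and 3.79 CPM. PMEL (0.997 and 1.14 CPM), TYRP1 (0.912 and 0.484 CPM) and TYR (0.0527 and 0.0244 CPM) were near 0 in both. Of 3 markers of dedifferentiated melanoma, AXL was at 41.9 CPM in the CHL1 control and 664 CPM in the 72-hour A375 control. WNT5A was at 0 and 65.1 CPM, and NGFR at 0.226 and 3.87 CPM. In the 6-day A375 control S100B was at 35.8 CPM, AXL at 267 CPM, and TYR at 5.02 and 0.626 CPM in its libraries. The 4 epithelial markers summed to at most 1.34 CPM in a CHL1 library and 12.2 CPM in an A375 library, the 3 blood markers to at most 17.4 and 23.0 CPM, mostly from PTPRC in CHL1 and LYZ in A375. The part of these markers in the results was not tested. In bulk RNA, fewer cells that express a gene and less RNA of it per cell cannot be told apart.

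Under control conditions the lines differed in the levels of several members. CHL1 had high NRG1 and ERBB3 and nearly no EGFR, while A375 had high TGFA and EGFR and less ERBB3. edgeR called 8 of the 10 members different between the 72-hour controls in a fit of all 18 libraries, where 58.9% of all genes were called. The median log2 difference, CHL1 over A375, was 0.57 over the 8 members left when AREG and EGFR were set aside for their few counts in CHL1, and -0.02 over all genes.

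NRG1, neuregulin 1, is the ligand of ERBB3 and ERBB4 and lies on chromosome 8 from 31496738 to 32713184 (plus strand, GRCh37). Its level was 705 and 762 CPM in the CHL1 controls and 95 and 93.9 CPM in the 72-hour A375 controls. The CHL1 values were all above those of A375, by 2.96 ± 0.35 (SE) on the log2 scale (adjusted p = 8.14e-07). TGFA, transforming growth factor alpha (chromosome 2, 70674416 to 70781325, minus strand), stood at 17.8 and 21.7 CPM in CHL1 against 269.9 and 300.3 CPM in A375. That gave a log2 difference of -3.85 ± 0.27 (adjusted p = 5.4e-10), with no overlap. EGF (chromosome 4, 110834039 to 110934922, plus strand), the founding ligand, was low in both lines, at 1.90 and 1.67 CPM in CHL1 and 5.45 and 4.89 CPM in A375. It was lower in CHL1 by 2.89-fold (adjusted p = 6.69e-05).

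AREG, amphiregulin (chromosome 4, 75310853 to 75320722, plus strand), had 0 and 2 counts in the CHL1 controls and 59 and 76 counts in the A375 controls. The summed rate was 93.7 times higher in A375, with a 95% interval of 25.4 to 781 that covers counting error only. The whole AREG transcript of 1234 bases also aligned to a second locus on chromosome 4 (75480629 to 75490481) with 99.9% identity, so reads could be split or set aside by the counting, and the AREG level is uncertain. No second locus was found for the other 9 members. HBEGF, heparin-binding EGF-like growth factor (chromosome 5, 139712428 to 139726188, minus strand), was at 22.4 and 18.9 CPM in CHL1 and at 13.3 and 14.0 CPM in A375. Its difference of 0.60 ± 0.25 on the log2 scale only just passed (adjusted p = 0.0499), and the call was lost when any of the 4 control libraries was left out (adjusted p up to 0.202). EREG, epiregulin, and BTC, betacellulin, lie near AREG on chromosome 4, from 75230862 to 75254466 and from 75669969 to 75719733. EREG had 2.14 and 1.91 CPM in CHL1 and 1.74 and 1.86 CPM in A375, and BTC had 2.07 and 2.55 CPM against 1.74 and 1.32 CPM. Neither passed the test (adjusted p = 0.63 and 0.126).

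EGFR, the receptor of most of these ligands (chromosome 7, 55086710 to 55279321, plus strand), gave 7 and 7 counts in the CHL1 controls and 4852 and 4666 counts in the 72-hour A375 controls. In CPM this was 0.242 and 0.248 against 234 and 228, a log2 difference of -9.85 ± 0.29 (adjusted p = 1.54e-14). Across all 8 CHL1 libraries EGFR stayed between 3 and 12 counts, while the 10 A375 libraries ranged from 1711 to 4852 counts. ERBB3, the receptor for NRG1 (chromosome 12, 56470583 to 56497289, plus strand), went the other way, with 333 and 304 CPM in CHL1 and 39.5 and 41.7 CPM in A375. Its log2 difference was 2.97 ± 0.22 (adjusted p = 1.48e-09), and the groups did not overlap. ERBB2, the partner without a ligand (chromosome 17, 37844167 to 37886679, plus strand), was alike in scale in both lines, at 110.2 and 109 CPM in CHL1 and 78.8 and 72.5 CPM in A375. The log2 difference of 0.54 ± 0.20 passed (adjusted p = 0.0245), but not when any of the 4 controls was left out (adjusted p up to 0.104).

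Levels of different genes were compared per kb of exon. In the CHL1 control NRG1 led the ligands with 34.3 CPM per kb, 73.4% of the sum over the 7, followed by HBEGF with 6.90 and TGFA with 4.02 CPM per kb. In the 72-hour A375 control TGFA led with 58.0 CPM per kb, 82.2% of the sum, and HBEGF (4.56) and NRG1 (4.42 CPM per kb) followed so closely that their order turned when the longest transcript was used for the length (5.79 and 7.55 CPM per kb). Among the receptors ERBB3 led in CHL1 with 27.2 CPM per kb before ERBB2 with 10.6, and EGFR was last with 0.0154 CPM per kb. EGFR led in A375 with 14.5 CPM per kb, before ERBB2 with 7.33 and ERBB3 with 3.47. In the 6-day A375 control this receptor order was different, with ERBB3 at 12.6, EGFR at 6.27 and ERBB2 at 3.64 CPM per kb.

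**Figure D1:**
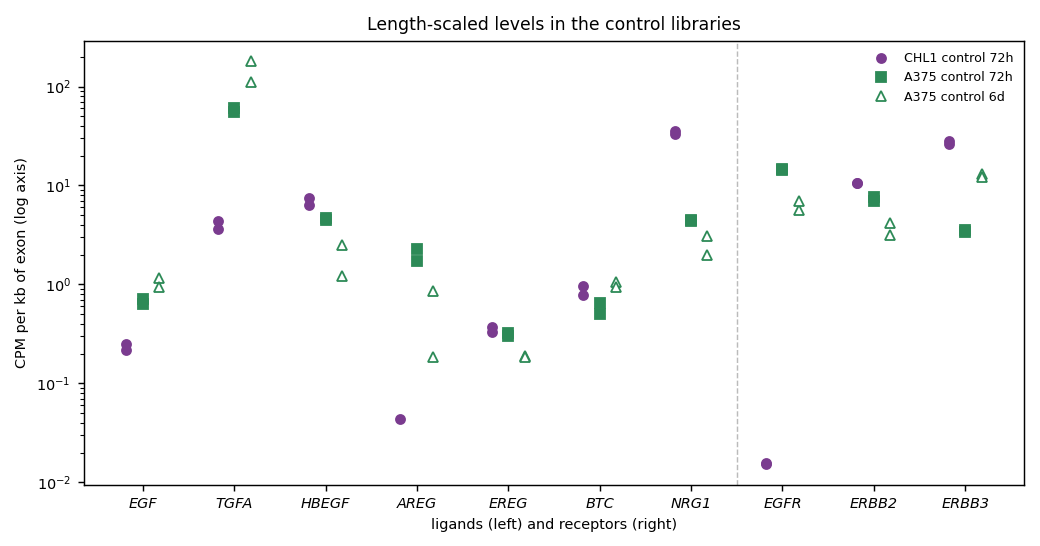
Levels of the 10 genes in the control libraries, in CPM per kb of exon on a log axis, with a point for each library (CHL1 circles, A375 at 72 hours squares, A375 at 6 days open triangles). EGFR lies at 0.0154 CPM per kb in CHL1 and at 14.5 in the 72-hour A375 control, and NRG1 and TGFA change places as the leading ligand; the CHL1 library with 0 AREG counts has no point.

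The A375 controls themselves differed between 72 hours and 6 days. ERBB3 stood at 39.5 and 41.7 CPM at 72 hours and at 154 and 142 CPM at 6 days, a ratio of 3.65. TGFA was 2.51 times higher at 6 days (893 and 541 CPM), EGFR 2.31 times lower (89.8 and 110.2 CPM), HBEGF 2.45 times lower (3.67 and 7.48 CPM) and ERBB2 2.01 times lower (32.4 and 42.7 CPM). None of the 10 members overlapped between the 2 controls, and 73.2% of all genes did not overlap either. The controls differ in time and library set and, as given above, in the GC trend. ERBB4, the receptor shared by several of the ligands, had 4 and 17 counts at 72 hours and 602 and 143 counts at 6 days, and TYR moved with it, as given above. These ratios of mean CPM, not corrected for GC, are a description with no test, and the part of the library set in them was not tested. Set against the 6-day control instead, the CHL1 control differed by 1.11 on the log2 scale for ERBB3, 3.75 for NRG1, -5.18 for TGFA and -8.64 for EGFR, without the GC correction, and 9 of the 10 members were called (61.0% of all genes).

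**Figure D2:**
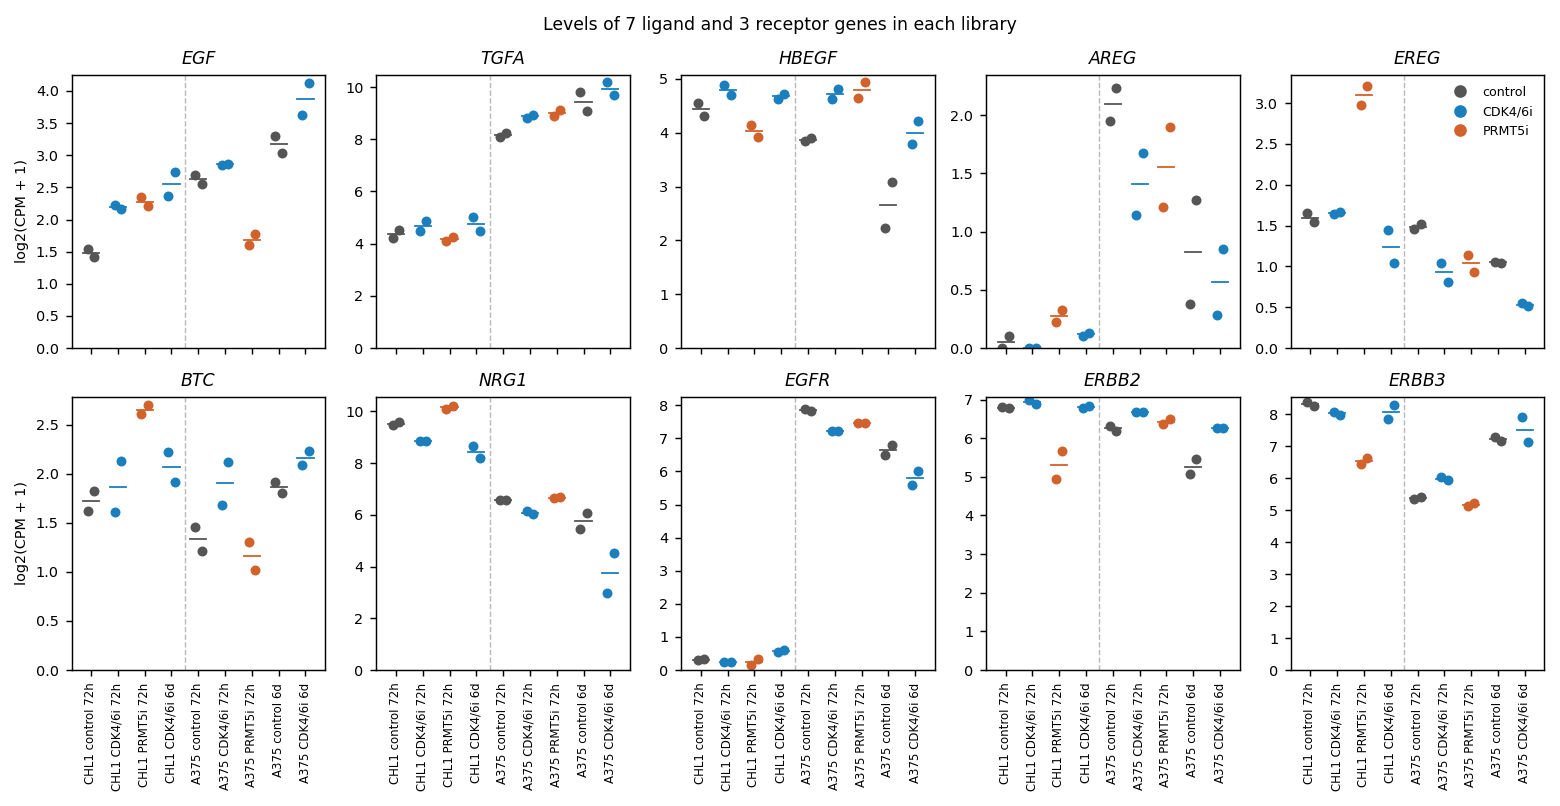
Level of each gene in every library as log2(CPM + 1), by group, with a point for each of 2 replicates and a line at their mean (control gray, CDK4/6i blue, PRMT5i orange; the dashed line parts CHL1 from A375). EGFR is near 0 in all 8 CHL1 libraries, and NRG1 lies between 292 and 1186 CPM there and between 6.78 and 102 CPM in A375.

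In CHL1 under CDK4/6i, EGF was called up-regulated at both times and NRG1 down-regulated at 6 days only. At 72 hours edgeR called 1 of the 10 members, while 4.98% of all genes were DEGs. At 6 days it called 2 of the 10, while 16.6% of all genes were DEGs. The median log2 fold change over the 8 members other than AREG and EGFR was 0.19 at 72 hours and 0.15 at 6 days, beside 0.00 and 0.03 over all genes. Both times share the same 72-hour control libraries, so at 6 days the drug and the days in culture cannot be told apart.

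EGF went from 1.90 and 1.67 CPM in the control to 3.66 and 3.49 CPM at 72 hours and 4.15 and 5.68 CPM at 6 days. All 4 treated libraries lay above both controls. The log2 fold change was 1.00 ± 0.25 at 72 hours (adjusted p = 0.0419) and 1.47 ± 0.25 at 6 days (adjusted p = 0.00303). These rest on 47 to 119 counts a library. The 72-hour call was lost when any of its 4 libraries was left out (adjusted p up to 0.332), and the 6-day call was lost without control replicate 2 (adjusted p = 0.0545).

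NRG1, the most abundant ligand of this line, fell at 6 days. It had 705 and 762 CPM in the control, 462 and 461 CPM at 72 hours and 400.4 and 292 CPM at 6 days, so that no treated library reached a control. The log2 fold change was -1.07 ± 0.18 at 6 days (adjusted p = 0.0028). At 72 hours it was -0.67 ± 0.18 and just missed the threshold (adjusted p = 0.0505). It passed there in the fit of the 6 libraries without PRMT5i (adjusted p = 0.0279) and with the GC correction (adjusted p = 0.021).

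The other ligands of CHL1 did not pass the test under CDK4/6i. HBEGF went from 22.4 and 18.9 CPM to 28.4 and 25.1 CPM at 72 hours, with no overlap but a log2 fold change of only 0.38 ± 0.18 (adjusted p = 0.263). TGFA had 21.1 and 27.8 CPM at 72 hours against 17.8 and 21.7 CPM and overlapped with its control. EREG gave 1.72 and 1.05 CPM and BTC 3.66 and 2.77 CPM at 6 days (adjusted p = 0.258 and 0.275). AREG stayed at 0 to 2 counts. The receptors did not pass either: ERBB2 was between 109.8 and 125 CPM in all 4 treated libraries, ERBB3 between 229 and 311 CPM, and EGFR had 5 and 5 counts at 72 hours and 12 and 11 counts at 6 days.

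Between 6 days and 72 hours of CDK4/6i in CHL1, edgeR called 0 of the 10 members (0.0145% of all genes), with NRG1 and EGFR at an unadjusted p below 0.05. DESeq2 also called 0.

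CDK4/6 inhibition in A375 lowered EGFR at both times. At 72 hours edgeR called 1 of the 10 members, while 13.3% of all genes were DEGs, and at 6 days it called 6 of the 10, while 43.1% were. The median log2 fold change of the 10 members was 0.29 at 72 hours and 0.37 at 6 days, beside 0.00 and 0.10 over all genes. The spread in this fit was estimated over all 10 A375 libraries. When it was taken from the 6 libraries of 72 hours alone, 7 of the 10 members were called at 72 hours (31.0% of all genes), and that adjusted p is given too. The replicate numbers of these 6 libraries went with shared deviations, and with the replicate block 9 of the 10 were called (42.3% of all genes), all but EGF.

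EGFR had 234 and 228 CPM in the 72-hour control and 149 and 147 CPM after 72 hours of CDK4/6i. At 6 days it had 89.8 and 110.2 CPM in the control and 46.8 and 63.3 CPM under the drug. Treated and control libraries did not overlap at either time. The log2 fold change was -0.70 ± 0.19 (adjusted p = 0.0228) at 72 hours and -0.87 ± 0.19 (adjusted p = 0.00211) at 6 days, the latter -1.01 with the GC correction. The 72-hour call was lost when any of its 4 libraries was left out (adjusted p up to 0.183), and it held in the fit of 6 libraries (adjusted p = 0.000184).

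Among the ligands of A375 at 72 hours, TGFA went from 269.9 and 300.3 CPM to 454 and 492 CPM. HBEGF went from 13.3 and 14.0 CPM to 23.8 and 27.1 CPM. For both, the treated libraries lay above the controls, and the log2 fold changes of 0.67 ± 0.23 and 0.84 ± 0.28 missed the threshold (adjusted p = 0.0671 and 0.0587). Both passed in the fit of 6 libraries (adjusted p = 0.00113 and 0.000526). NRG1, from 95 and 93.9 CPM to 70.2 and 64.0 CPM, and EREG, from 36 and 38 counts to 20 and 15 counts, lay below their controls (adjusted p = 0.334 and 0.0823, or 0.000871 and 0.0359 in the fit of 6 libraries). EGF, at 6.23 and 6.31 CPM, AREG, at 23 and 44 counts, and BTC, at 2.22 and 3.35 CPM, passed in neither of these fits. With the replicate block AREG (adjusted p = 0.000868) and BTC (0.0167) passed, and BTC also passed with the GC correction in the fit of 10 libraries (0.0399). ERBB3 went from 39.5 and 41.7 CPM to 64.0 and 60.3 CPM and ERBB2 from 78.8 and 72.5 CPM to 101 and 101 CPM, with adjusted p = 0.105 and 0.203, or 0.00108 and 0.0125 in the fit of 6 libraries.

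At 6 days in A375, NRG1 fell from 42.7 and 66.6 CPM to 6.78 and 22.1 CPM. The treated libraries lay below both controls, though they also stood far apart from each other, and the log2 fold change was -1.93 ± 0.36 (adjusted p = 0.000707), or -1.52 with the GC correction. HBEGF rose from 3.67 and 7.48 CPM to 12.8 and 17.5 CPM, a log2 fold change of 1.43 ± 0.29 (adjusted p = 0.00111), or 1.12 with the GC correction. EGF rose from 8.89 and 7.17 CPM to 11.3 and 16.4 CPM, by 0.78 ± 0.24 on the log2 scale (adjusted p = 0.0163), or 1.10 with the GC correction. That call was lost without treated replicate 2 (adjusted p = 0.202) and in the fit of only the 4 libraries of 6 days (adjusted p = 0.0947). In that fit 4 members were called (28.3% of all genes), and EREG was lost too (adjusted p = 0.0578). EREG fell from 36 and 34 counts to 17 and 16 counts, a log2 fold change of -1.26 ± 0.38 (adjusted p = 0.0154), which was lost without either treated library (adjusted p up to 0.0793) and with the GC correction (adjusted p = 0.592). ERBB2 rose from 32.4 and 42.7 CPM to 75.9 and 76.0 CPM, with a log2 fold change of 1.01 ± 0.18 (adjusted p = 0.000512).

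TGFA at 6 days had 893 and 541 CPM in the control and 1156 and 833 CPM under CDK4/6i, and these overlapped (adjusted p = 0.107). ERBB3 had 154 and 142 CPM against 237 and 138 CPM and overlapped too (adjusted p = 0.211). AREG and BTC did not pass (adjusted p = 0.378 and 0.316). With the GC correction 7 members were called (37.8% of all genes with a GC value), now with TGFA (log2 fold change of 0.62) and BTC (1.11) but without EREG, and ERBB2 was smaller at 0.41. Against the 72-hour A375 control HBEGF and ERBB2 no longer differed by the test, with log2 fold changes of 0.10 (adjusted p = 0.818) and -0.04 (adjusted p = 0.9), while EGFR gave -2.12, NRG1 -2.76, TGFA 1.76 and ERBB3 2.16.

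The CDK4/6i response of A375 at 6 days was compared with that at 72 hours by an interaction test, and edgeR called 0 of the 10 members (1.08% of all genes), with NRG1 and ERBB2 at an unadjusted p below 0.05. DESeq2 also called 0. The differences were 0.64 for ERBB2, 0.59 for HBEGF and -1.38 for NRG1. With the GC correction they were 0.19 (adjusted p = 0.498), 0.32 (adjusted p = 0.661) and -1.14 (adjusted p = 0.334). Single libraries moved the uncorrected values. Without 6-day control replicate 2, which had the smaller GC trend of the 2, ERBB2 was 0.89 and HBEGF 1.23. Without treated replicate 2 of 6 days NRG1 was -2.46. The responses of CHL1 and A375 to 72 hours of CDK4/6i were set against each other in the same way, and 0 of the 10 members were called (0.642% of all genes). EREG and ERBB3 had an unadjusted p below 0.05, and DESeq2 again called 0. The difference, CHL1 minus A375, was 0.72 ± 0.36 for EGF (adjusted p = 0.546) and -0.91 ± 0.29 for ERBB3 (adjusted p = 0.212), and neither passed. In the fit of only the 8 libraries compared, ERBB3 passed (-0.89, adjusted p = 0.000548), the 1 member called there (8.68% of all genes).

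**Figure D3:**
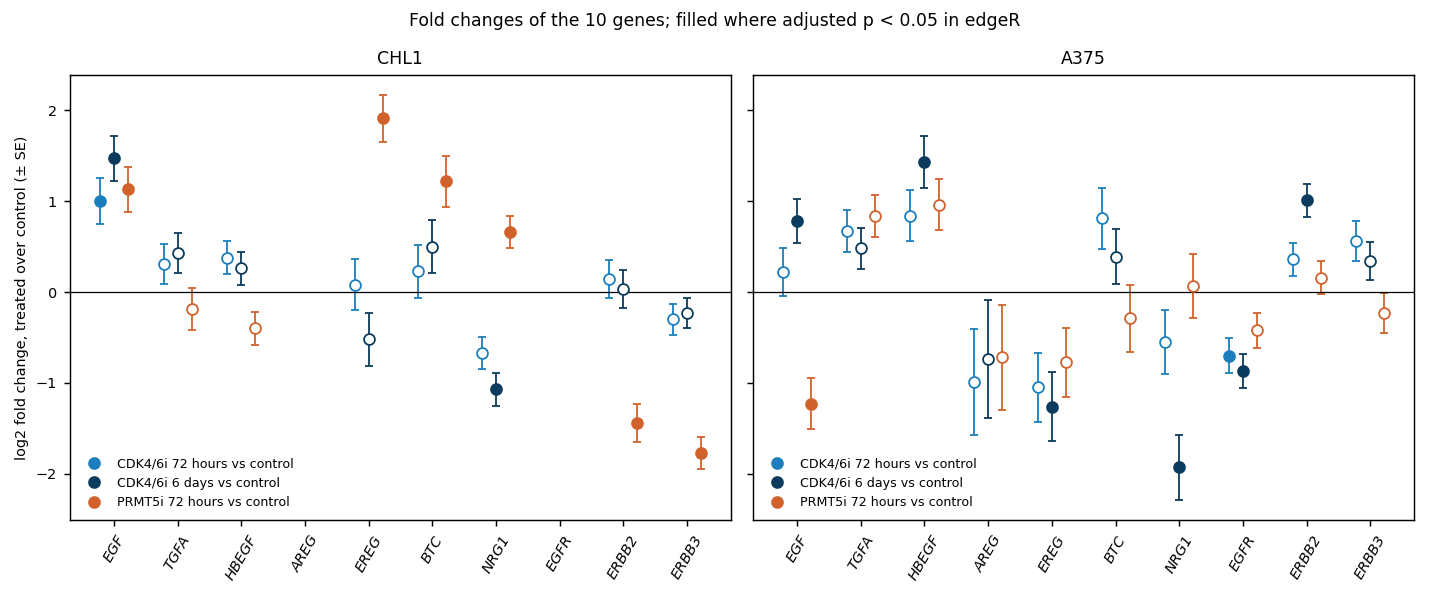
Log2 fold change of each gene against its control, with its standard error, for 3 treatments in CHL1 (left) and A375 (right). Filled points passed an adjusted p of 0.05 in edgeR, and AREG and EGFR are left out for CHL1, where their counts were few. Under CDK4/6i, EGF lies at 1.00 and 1.47 in CHL1 and EGFR at -0.70 and -0.87 in A375.

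Under PRMT5i the number of members called differed between the lines, and so did the share of all genes called. In CHL1 edgeR called 6 of the 10 members, 4 ligands up-regulated and ERBB2 and ERBB3 down-regulated, while 54.0% of all genes were DEGs. In A375 it called 1 of the 10, EGF, which was down-regulated, while 2.61% of all genes were. The median log2 fold change was 0.24 over the 8 members used in CHL1 and -0.26 over the 10 in A375, beside 0.00 over all genes in both.

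EREG in CHL1 rose from 2.14 and 1.91 CPM to 6.84 and 8.28 CPM under PRMT5i, a log2 fold change of 1.91 ± 0.26 (adjusted p = 0.000165). BTC rose from 2.07 and 2.55 CPM to 5.10 and 5.52 CPM (1.22 ± 0.28, adjusted p = 0.00305). EGF rose from 1.90 and 1.67 CPM to 4.09 and 3.62 CPM (1.13 ± 0.25, adjusted p = 0.00221). NRG1 rose from 705 and 762 CPM to 1101 and 1186 CPM (0.66 ± 0.18, adjusted p = 0.00725), though without control replicate 1 it did not pass (adjusted p = 0.072). All of these treated libraries lay above both controls. HBEGF, at 16.7 and 14.1 CPM, lay below its controls without passing (adjusted p = 0.078), and TGFA, at 16.2 and 18 CPM, overlapped with them. AREG had 5 and 7 counts against 0 and 2, and EGFR had 3 and 7 counts against 7 and 7.

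Among the members, the receptors with substantial counts, ERBB3 and ERBB2, fell. The receptor ERBB4, which is not a member, was not called. ERBB3 went from 333 and 304 CPM to 86.6 and 98.1 CPM, a log2 fold change of -1.77 ± 0.18 (adjusted p = 8.32e-05). ERBB2 went from 110.2 and 109 CPM to 29.7 and 50.1 CPM, a log2 fold change of -1.44 ± 0.21 (adjusted p = 0.000238). Neither overlapped with its control.

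These changes ran along the GC content of the transcripts. The longest transcripts of the 4 ligands that rose were 36.1% (EREG), 38.7% (BTC), 41.2% (NRG1) and 42.6% (EGF) G and C, and those of the receptors that fell were 52.6% (ERBB3) and 57.5% (ERBB2). With the GC correction 3 members were called (28.7% of the genes with a GC value), each of them among the 6: ERBB3 at -1.12 (adjusted p = 0.000345), EREG at 0.70 (adjusted p = 0.0266) and ERBB2 at -0.40 (adjusted p = 0.0207). EGF was then 0.59 (adjusted p = 0.089), BTC 0.25 (adjusted p = 0.474) and NRG1 -0.04 (adjusted p = 0.894). The cause of the GC trend was not tested.

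**Figure D4:**
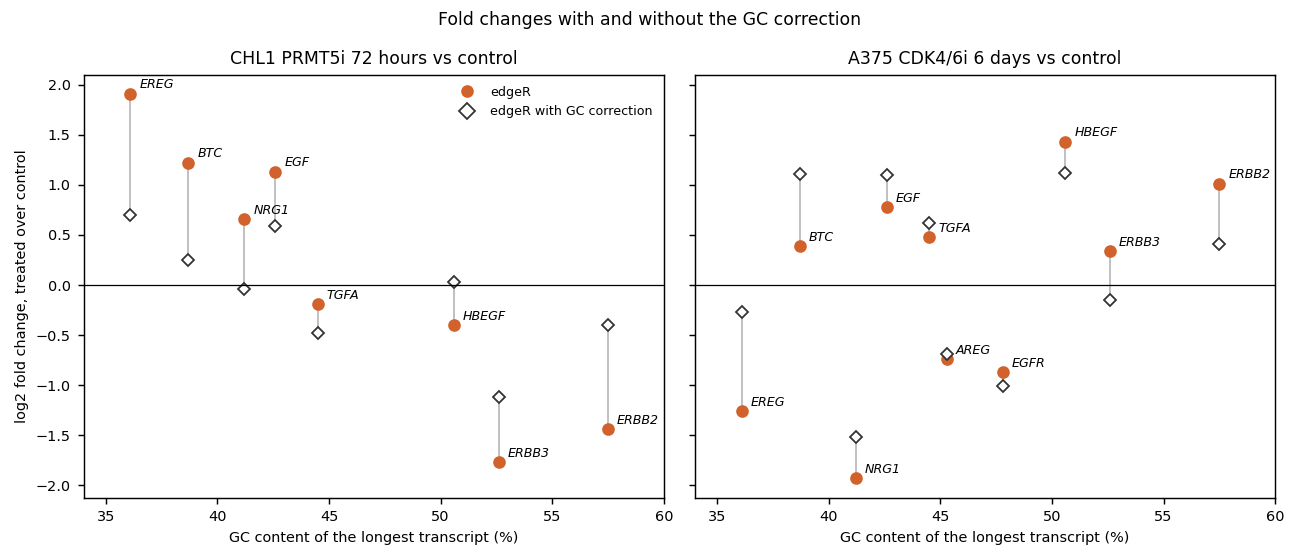
Log2 fold change of the members against the GC content of their longest transcript (%), in edgeR (filled circles) and with the GC correction (open diamonds), for PRMT5i in CHL1 (left, without AREG and EGFR) and 6 days of CDK4/6i in A375 (right). In CHL1, EREG moves from 1.91 to 0.70 and ERBB2 from -1.44 to -0.40 with the correction.

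In A375 under PRMT5i, EGF fell from 5.45 and 4.89 CPM to 2.03 and 2.43 CPM, below both controls. The log2 fold change was -1.23 ± 0.28 (adjusted p = 0.0287). That rests on 37 and 40 treated counts, and the call was lost when any of its 4 libraries was left out (adjusted p up to 0.227). TGFA went from 269.9 and 300.3 CPM to 477 and 554 CPM and HBEGF from 13.3 and 14.0 CPM to 24.0 and 29.8 CPM, each above both controls. They missed the threshold (adjusted p = 0.0684 and 0.0837) but passed in the fit of the 6 libraries of 72 hours (adjusted p = 0.00081 and 0.00071), in which 4 members were called (15.8% of all genes), EGF and EGFR among them. With the replicate block 5 were called (29.5% of all genes), the 4 and AREG (adjusted p = 0.0249). EGFR had 174 and 174 CPM against 234 and 228 CPM (adjusted p = 0.282, or 0.0121 in that fit). NRG1 stood at 98.5 and 102 CPM, ERBB2 at 81.5 and 88.8 CPM and ERBB3 at 33.8 and 35.9 CPM, and none of these passed in either fit. AREG gave 24 and 45 counts, EREG 22 and 15 counts and BTC 27 and 17 counts, and these did not pass either.

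The difference between the responses of the lines to PRMT5i was tested directly, and 7 of the 10 members were called (40.9% of all genes). The response of CHL1 lay above that of A375 for EREG, EGF and BTC and below it for ERBB2, ERBB3, HBEGF and TGFA. For EGF the responses were of opposite sign, with a difference of 2.33 ± 0.38 on the log2 scale (adjusted p = 0.000298). With the GC correction 6 of the 10 were called (21.0% of the genes with a GC value), with a difference of 1.75 for EGF (adjusted p = 0.0028) and 0.41 for BTC, which no longer passed (adjusted p = 0.568). The median difference was -0.25 over the 8 members other than AREG and EGFR and -0.09 over all genes.

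The genes around the receptors were taken from 5 lists with 53 genes in the table. They were other ligands and ERBB4, ligand release, receptor adaptors and first effectors, receptor restraint, and genes that respond to ERK. CBLC and ETV4 were not analysed here. In CHL1 9 of the 53 passed at 72 hours of CDK4/6i (6 up-regulated and 3 down-regulated), 16 at 6 days (10 and 6) and 33 under PRMT5i (20 and 13). In A375 CDK4/6i gave 7 at 72 hours (6 and 1) and 25 at 6 days (9 and 16), and PRMT5i gave 3 (1 and 2). Read against all genes, the shares called were 4.98%, 16.6% and 54.0% in CHL1 and 13.3%, 43.1% and 2.61% in A375, in the same order. With the GC correction the 33 became 20 (28.7% of the genes with a GC value) and the 25 became 20 (37.8%).

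The other ligands and ERBB4 moved down under CDK4/6i where they passed. In CHL1 NRG3, a neuregulin that binds ERBB4, went from 17.0 and 19.5 CPM to 2.58 and 3.52 CPM at 72 hours and 1.83 and 4.05 CPM at 6 days, with log2 fold changes of -2.58 ± 0.30 (adjusted p = 0.00146) and -2.64 ± 0.30 (adjusted p = 0.000512). Its receptor ERBB4 went from 66.4 and 94.0 CPM to 31.6 and 44.8 CPM at 72 hours (adjusted p = 0.0359). At 6 days ERBB4 did not pass in the fit without the GC correction. EPGN, epigen, fell by 1.85 on the log2 scale at 6 days. ERBB4 was nearly absent from A375 at 72 hours, with 4 and 17 counts in the control. In A375 NRG2 fell under CDK4/6i at 72 hours (-0.61 ± 0.19, adjusted p = 0.0448) and under PRMT5i (-0.91 ± 0.19, adjusted p = 0.0198), and NRG3 (-1.09, and -1.38 with the GC correction) and NRG4 (-0.77) fell at 6 days of CDK4/6i, NRG4 not with the GC correction (adjusted p = 0.769). In CHL1 PRMT5i raised NRG4 (1.88, and 0.81 with the GC correction) and EPGN (1.18, and 0.24 with it, adjusted p = 0.565).

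Of the 10 genes of ligand release, ADAM19, a protease that can cut neuregulins, rose in A375 from 190.3 and 181 CPM to 520.0 and 538 CPM at 72 hours of CDK4/6i (1.45 ± 0.25, adjusted p = 0.00122) and from 62.9 and 119.7 CPM to 321 and 311 CPM at 6 days (1.78 ± 0.25, adjusted p = 8.32e-05, and 1.32 with the GC correction). It had 8 to 19 counts in each CHL1 library. ADAM12 rose in A375 at 72 hours (0.94), and ADAM9 rose in CHL1 at 6 days (0.88) and fell in A375 at 6 days (-1.15, and -0.31 with the GC correction, adjusted p = 0.0954). Under PRMT5i in CHL1 7 of the 10 passed (54.0% of all genes), and 2 with the GC correction (28.7% of the genes with a GC value). ADAM10 (1.16) and ADAM15 (-1.77) were among the 7. With the GC correction ADAM10 was 0.09 (adjusted p = 0.608) and ADAM15 -0.43 (adjusted p = 0.0141).

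Of the 11 adaptors and first effectors, PIK3R2, a regulatory subunit of PI3 kinase, rose under CDK4/6i in CHL1 (0.98 at 72 hours and 1.10 later) and in A375 at 72 hours (0.75), and PIK3R1 rose in CHL1 at 6 days (0.61). SHC1, an adaptor that binds the activated receptors, rose in A375 at 72 hours (0.73) and 6 days (1.37, and 0.80 with the GC correction), while GAB1 fell there at 6 days (-1.36, and -0.53 with it). In CHL1 10 of the 11 passed under PRMT5i (54.0% of all genes), and 4 with the GC correction (28.7% of the genes with a GC value). Among the 10 were SOS2 (1.36, and 0.58 with the GC correction) and PIK3CA (1.57, and 0.32 with it, adjusted p = 0.0699).

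Of the 12 genes in the receptor restraint list, RNF41, a ubiquitin ligase for ERBB3, rose under 72 hours of CDK4/6i in CHL1 (0.67 ± 0.16, adjusted p = 0.0328) and in A375 (0.65 ± 0.20, adjusted p = 0.0391). In A375 at 6 days RNF41 rose by 1.12 (0.99 with the GC correction). LRIG3 fell in CHL1 (-1.05 at 72 hours and -1.09 at 6 days), and SPRY1 fell in A375 at 6 days (-1.84, and -1.72 with the GC correction). CBLB rose in CHL1 at 6 days of CDK4/6i (0.60) and under PRMT5i (1.70, and 0.87 with the GC correction), as did LRIG2 under PRMT5i (0.99, and 0.44 with it). ERRFI1, an inhibitor that binds the kinase of EGFR, stood at 591 and 624 CPM in the 72-hour A375 control and at 29.4 and 31.6 CPM in CHL1. It fell in A375 under PRMT5i to 329 and 378 CPM (-0.79 ± 0.18, adjusted p = 0.0317).

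Of the 15 genes that respond to ERK, CCND1, cyclin D1, rose in all 4 CDK4/6i comparisons, from 311 and 328 CPM to 816 and 799 CPM in CHL1 at 72 hours (1.34 ± 0.15, adjusted p = 0.00141), by 1.31 at 6 days, and by 0.90 and 0.94 on the log2 scale in A375, the latter 0.62 with the GC correction. DUSP4, a phosphatase of ERK, rose in CHL1 from 84.1 and 93.2 CPM to 413 and 385 CPM at 72 hours (2.17 ± 0.25, adjusted p = 0.00149) and to 476 and 252 CPM at 6 days (2.06). SPRED1 fell in A375 at 6 days (-1.31, and -0.28 with the GC correction, adjusted p = 0.122). Under PRMT5i PHLDA1 rose (1.77, and 1.28 with the GC correction) and IER3 fell (-2.27, and -1.16 with it) in CHL1, and EGR1 rose in A375 from 3.52 and 4.06 CPM to 11.1 and 20.8 CPM (2.06 ± 0.35, adjusted p = 0.00716).

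**Figure D5:**
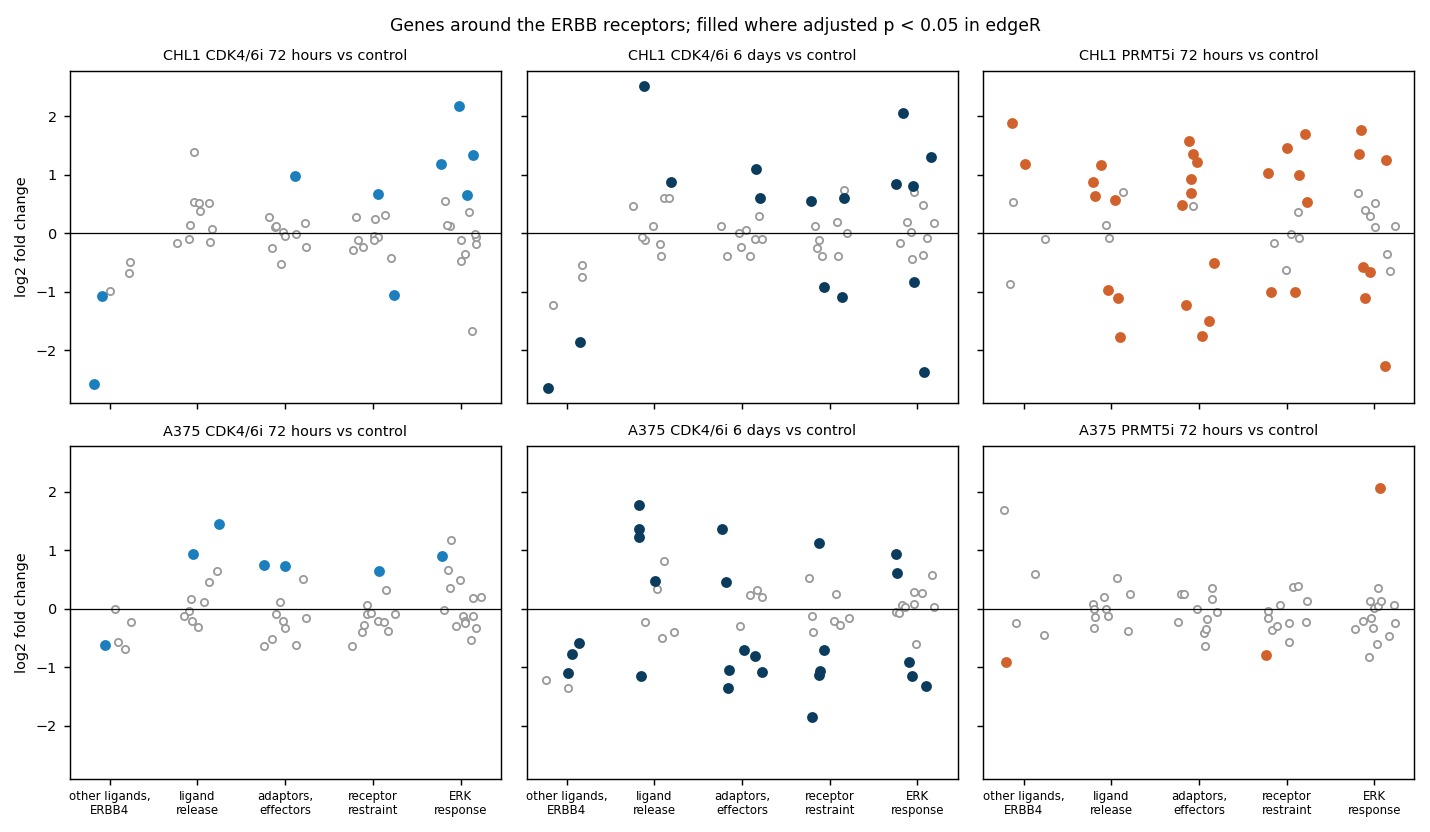
Log2 fold change of 53 genes around the ERBB receptors in 6 comparisons with control, in 5 lists along the horizontal axis, with a point for each gene. Filled points passed an adjusted p of 0.05 in edgeR. The lowest filled points under CDK4/6i in CHL1 are NRG3 at -2.58 and -2.64.

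Genes whose pattern was most like a member's were sought over all 18 libraries among 15658 genes, after the mean of each line was taken off, and the correlations are a description, since the libraries share their groups and their GC trends. ERBB2 was nearest to C17orf62 (Pearson r = 0.991), INTS5 (0.99) and CUEDC2 (0.989), HBEGF to TUFT1 (0.973), CDIP1 and PFDN5 (0.953 each), and ERBB3 to SDC3 (0.972), SPON2 (0.938) and BAMBI (0.937). EGFR was nearest to EBF2 (0.968), TMEM154 and TULP3 (0.964 each), though nearly all of its counts came from A375. NRG1 was nearest to TMEM194B (0.951), PTPRM (0.944) and TRPC4 (0.923), and EREG to SMURF2 (0.937), SNX9 (0.930) and ANKMY2 (0.929). TGFA (HSD3BP5, SCARA5 and DNAJC12), BTC (ZNF682, TSGA10 and ATP6V1H) and EGF (AK9, SLC25A14 and PLA2G7) had nearest genes at 0.893 to 0.922. By rank correlation (Spearman rho) the order was different for some members. The genes given for EGF then stood at places 132, 99 and 134, DNAJC12 at 358, CUEDC2 at 448 and SNX9 at 233. In contrast, TUFT1 for HBEGF, SDC3 for ERBB3 and HSD3BP5 for TGFA stayed at place 1.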

How the data were processed

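RNA from 18 libraries of CHL1 and A375 cells was sequenced by the authors as paired-end TruSeq poly-A RNA-seq, aligned to GRCh37 with HISAT2 2.0.4 and counted per gene with HTSeq at its default settings, which count by strand. Whether the kit marks strand was not given in the sources used here. The deposited values are whole numbers whose totals differ between libraries. They were treated as raw counts per gene, although the authors called the table normalised, and if they had been scaled before rounding the count model would hold only in part. The methods name a filter on genes of low expression. All 20705 genes were tested.

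Counts were fitted with edgeR 4.0.16 (quasi-likelihood, TMM scaling, R 4.3.3) over the 8 CHL1 libraries, over the 10 A375 libraries, and over all 18 for comparisons between lines. Benjamini-Hochberg adjusted p below 0.05 was called, and fold changes used a prior count of 0.125. Levels are CPM on TMM library sizes. DESeq2 1.42.0 was an alternative. The GC correction used as an offset a loess curve (span 0.4) of each library's deviations against transcript GC, over the 16338 genes with a GC value (15208 by symbol and 1130 by an older symbol, 87.2% of the 15677 genes averaging 1 CPM or more). Copies of members were sought with minimap2 2.31. Gene positions are GENCODE 44 on GRCh37. The scripts were tested on simulated data.

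All 10 members are given. Of the list genes, those named are, for each list and treatment comparison, at most the 2 called genes with the smallest adjusted p with no overlap between treated and control libraries and an average of 1 CPM or more in the line. The members and lists were chosen with earlier results of these data known. CBLC, ETV4, SOX10, MLANA, S100A1, SOX9, CDH1, CD3E, PECAM1 and CDH5 were not analysed here. Total counts were 16213475 to 37424081 per library. The precision of the tests also rests on the spread between replicates, while the interval given for AREG covers counting error only.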

Additional observations from a re-analysis of the deposited data

Results flagged for a closer look

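For 7 of the 10 members the response to PRMT5i differed between the lines in a direct test, an interaction in edgeR over all 18 libraries. That test called 40.9% of all genes. The values are the log2 fold change in CHL1 minus that in A375. They were 2.33 for EGF, 2.65 for EREG and 1.47 for BTC, and -1.06 for TGFA, -1.40 for HBEGF, -1.63 for ERBB2 and -1.56 for ERBB3. With the GC correction they were 1.75 for EGF, 1.29 for EREG, 0.41 for BTC (adjusted p = 0.568), -1.37 for TGFA, -0.90 for HBEGF (adjusted p = 0.0462), -0.49 for ERBB2 and -0.83 for ERBB3 (adjusted p = 0.0447). The corrected test called 6 of the 10 members and 21.0% of the genes with a GC value. The call of TGFA was lost without CHL1 control replicate 2, CHL1 PRMT5i replicate 1, A375 control replicate 1 or A375 PRMT5i replicate 2 (adjusted p of 0.0687 to 0.0749 in edgeR). That of BTC was lost without CHL1 control replicate 1, A375 control replicate 1 or A375 PRMT5i replicate 2 (adjusted p of 0.072 to 0.0776). The CHL1 PRMT5i libraries carry the GC trend, and its part in these differences was not tested beyond that correction.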

How the results depend on the processing

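With 2 replicates a group, calls near the threshold turned on single libraries. The larger changes in the counts of members called were as follows, and the smaller ones are given only in part. In CHL1 at 72 hours of CDK4/6i the 1 became 2 with DESeq2, with the fit of only the groups compared, over the genes with a GC value with or without the GC correction, with the replicate block and GC correction, and with the 6 CHL1 libraries of control and CDK4/6i (an alternative chosen after seeing the data), and 0 with the replicate block or a log2 fold change of at least 1. Under PRMT5i in CHL1 the 6 became 3 with the GC correction, with or without the replicate block. The share called there was 54.0% of all genes, and 28.7% of the genes with a GC value after the correction without the block. In A375 at 72 hours the 1 became 2 with median-of-ratios scaling, 3 with DESeq2 or all 18 libraries, 4 with the GC correction, 7 with the 6 libraries of 72 hours, 8 with only the groups compared, 9 with the replicate block, 8 with the block and GC correction, and 0 with a log2 fold change of at least 1. Of all genes, 13.3% were called in the fit of 10 libraries, 31.0% with the 6 libraries and 42.3% with the replicate block. The shares for the other fits at 72 hours in A375 are not given here. Under PRMT5i in A375 the 1 became 3 with DESeq2, only the groups compared or the GC correction, 2 with all 18 libraries, 4 with the 6 libraries, 5 with the replicate block and 6 with the block and GC correction. There the share of all genes was 2.61% in the fit of 10 libraries, 15.8% with the 6 libraries and 29.5% with the replicate block. In A375 at 6 days the 6 became 4 with only the groups compared (28.3% of all genes), which lost EGF and EREG. For the CDK4/6i difference between lines the 0 became 1 (ERBB3) with only the groups compared (8.68% of all genes). Among the smaller changes, the 6 under PRMT5i in CHL1 became 5 with all 18 libraries. They became 7 of the 8 members kept by a filter of at least 1 CPM in 2 libraries. With DESeq2 the 8 between the controls became 7, and the 7 for the PRMT5i difference between lines became 8.

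For the 53 list genes only the larger changes are given. The 9 called in CHL1 at 72 hours became 18 with only the groups compared. The 16 at 6 days became 25 with the replicate block and GC correction and 8 with a log2 fold change of at least 1. The 33 under PRMT5i became 20 with the GC correction and 21 with that fold. In A375 the 7 at 72 hours became 12 with DESeq2, 25 with only the groups compared, 15 with the GC correction, 24 with the 6 libraries, 29 with the replicate block, 26 with the block and GC correction and 1 with that fold. The 25 at 6 days became 15 with that fold. The 3 under PRMT5i became 9 with only the groups compared, 5 with the GC correction, 17 with the 6 libraries, 27 with the block, 25 with the block and GC correction and 1 with that fold. The shares of all genes given above for the 6 libraries and the replicate block belong beside these counts too. The causes were not tested.

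Leaving out 1 library gave these ranges of members called: 0 to 0 in CHL1 at 72 hours, 1 to 2 at 6 days and 5 to 7 under PRMT5i; in A375 0 to 0 at 72 hours, 5 to 7 at 6 days and 0 to 0 under PRMT5i; 0 to 2 for time in A375, 5 to 7 for the PRMT5i difference between lines and 6 to 6 between the controls. For the list genes they were 3 to 4, 5 to 14 and 27 to 34 in CHL1 and 1 to 1, 19 to 38 and 0 to 1 in A375.

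Values that changed sign were ERBB2 in CHL1 at 6 days (-0.05 with the GC correction, with or without the block), HBEGF (0.03, or 0.02 with the block) and NRG1 (-0.04) under PRMT5i in CHL1 with it, ERBB3 in A375 at 6 days (-0.15) with it, and ERBB2 there against the 72-hour control (-0.04). Leaving out a library in turn gave -0.17 to 0.54 for BTC in CHL1 at 72 hours, and -1.94 to 0.78 for AREG and -0.11 to 0.68 for ERBB3 in A375 at 6 days.

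Same-numbered deviations correlated at 0.22 to 0.48 between the A375 groups of 72 hours, where values with the replicate block stand beside the results, and at -0.34 to 0.44 in CHL1, where the samples were taken to share only a number. The 6-day A375 libraries carry no number in the labels, so no block was fitted there.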
